A study of Mus musculus with 12 samples.

Results

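Of 9 G protein coupled receptors named for adipocytes, 6 could be read on these arrays of mouse brown adipose tissue: Drd1, Hcar1, Hcar2, Sucnr1, Ptger3 and Ffar4. They were chosen by gene symbol, among 22180 genes with a probe set annotated to 1 symbol, and each of the 6 had 1 such probe set. The rule that takes the probe set with the highest mean over 12 arrays where a gene has several therefore decided nothing. The only probe set of Gpr3 also carries the symbol Cd164l2, so it is not given here, and Adora1 and Adrb1 were not analysed here. The names were proposed with earlier results of these arrays known, so the readings describe these receptors and are no independent evidence about receptors as a class.

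The 12 mice gave 1 array each, in 4 groups of 3: Sel1L AdipCre mice at 4 °C, Sel1L f/f littermates at 4 °C, Sel1L AdipCre mice at room temperature and Sel1L f/f littermates at room temperature. All were on the C57BL/6J background, and the titles give 5 h of fasting at the temperature of the group. The labels give neither age nor sex. The knockout mice carry the floxed alleles and a Cre recombinase driven by the Adiponectin promoter, which is active in white as well as brown adipocytes. The littermates, called controls, carry the floxed alleles too. The labels speak of snap-frozen tissue and the series' design text of isolated brown adipocytes, so cells other than adipocytes may be present. In bulk tissue, fewer cells of a type and less RNA per cell cannot be told apart.

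G protein coupled receptors let adipocytes read hormones, nerve signals and their own metabolites. Receptors that couple to the Gs protein, such as the adrenergic receptors that noradrenaline activates in the cold and the dopamine receptor Drd1, switch on adenylyl cyclase, which raises cAMP and through protein kinase A drives lipolysis and heat production. Receptors that couple to Gi proteins lower cAMP, and among them Hcar1 binds lactate, Hcar2 binds the ketone body beta-hydroxybutyrate and niacin, Sucnr1 binds succinate, and Ptger3 binds prostaglandin E2. Ffar4 binds long-chain fatty acids and couples mainly to Gq and Gi.

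Readings are log2 expression values, on which a difference of 1 is a 2-fold change. The median of an array lay between 2.03 and 2.09, and readings near it may hold little more than background, where fold changes are understated. Drd1 rose and Hcar1 fell in the cold in both genotypes. Drd1 was further higher and Ffar4 lower in the arrays labelled knockout than in controls at 4 °C. At room temperature 0 of the 6 passed the test between genotypes.

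The labels were checked first. Sel1l read 6.90, 6.73 and 6.54 in the arrays labelled knockout at 4 °C and 6.99, 6.69 and 7.04 in controls at 4 °C, so the deleted gene did not check the label there. At room temperature it read 6.18, 6.09 and 5.92 in the arrays labelled knockout and 7.37, 6.96 and 7.23 in controls. Derl3, an endoplasmic reticulum protein of degradation, separated the genotypes at both temperatures, with 9.09 to 9.24 in arrays labelled knockout at 4 °C, 3.04 to 3.47 in controls at 4 °C, 7.69 to 7.83 in arrays labelled knockout at room temperature and 2.58 to 3.12 in controls at room temperature. Ucp1, the uncoupling protein that defines brown adipocytes, read 12.38 to 12.83 over the 4 groups. One control array at room temperature, replicate 3, has a source name that says 4 °C, against its title and its temperature label. It was analysed by its title, at room temperature. The 3 room temperature controls, this array included, read 1.56 to 1.97 for Fosb, against 4.93 to 6.27 in controls at 4 °C. For Cebpa they read 8.62 to 8.98 against 5.95 to 6.70. Nr4a1 overlapped, at 4.90 to 9.09 against 8.81 to 9.90. By Fosb and Cebpa the array lay with the room temperature controls, and no formal test of the label was run. Skeletal muscle markers, 19 genes, averaged 2.57 to 6.62 per array in arrays labelled knockout at 4 °C, 4.79 to 7.85 in controls at 4 °C, 2.83 to 6.26 in arrays labelled knockout at room temperature and 6.31 to 7.19 in controls at room temperature. All 13 calls of the receptors held with that mean as a covariate.

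Drd1, the dopamine receptor that couples to Gs, is shown first because its readings separated both temperatures and, at 4 °C, the genotypes. RefSeq lists a pair of start sites for it. The 250 bases before the outer one, on the minus strand at chr13:54055659-54055908 (GRCm38.p6), read 5′ to 3′ as follows, all in lower case because none of the motifs searched for was found.
Drd1: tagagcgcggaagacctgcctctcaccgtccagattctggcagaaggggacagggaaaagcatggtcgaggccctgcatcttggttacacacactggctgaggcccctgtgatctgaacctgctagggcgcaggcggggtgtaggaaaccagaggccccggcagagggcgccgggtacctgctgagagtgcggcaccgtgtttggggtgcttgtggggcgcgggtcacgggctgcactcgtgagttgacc

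Drd1 read 5.16, 4.76 and 4.49 in the arrays labelled knockout at 4 °C. In controls at 4 °C it read 3.25, 3.75 and 3.16. At room temperature it read 2.01, 1.55 and 2.12 in the arrays labelled knockout and 1.74, 1.87 and 1.65 in controls. The order of the group means was knockout at 4 °C, control at 4 °C, knockout at room temperature and control at room temperature, and only the last pair overlapped. All 6 arrays at 4 °C lay above all 6 at room temperature. The room temperature readings lay close to the array medians, and only those in the cold stood clear of them.

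In limma, with Benjamini-Hochberg adjustment over all probe sets that carry 1 symbol, Drd1 was 7.51-fold higher at 4 °C than at room temperature in the arrays labelled knockout (log2 2.91 ± 0.20 SE, n = 3 per group, adjusted p = 8.45e-06). In controls it was 3.10-fold higher (1.63 ± 0.20, n = 3 per group, adjusted p = 0.000411 in limma). These comparisons called 9.03% and 11.1% of all probe sets. At 4 °C, Drd1 was 2.67-fold higher in the arrays labelled knockout than in controls (1.41 ± 0.20, n = 3 per group, adjusted p = 0.000876 in limma), in a comparison that called 5.8% of all probe sets. At room temperature the genotype difference was 0.14, with a 95% interval of -0.30 to 0.58 (adjusted p = 0.858 in limma). The cold response of the arrays labelled knockout exceeded that of controls by 1.28, with a 95% interval of 0.66 to 1.90, and this interaction did not pass the test (unadjusted p = 0.000706, adjusted p = 0.0995 in limma). A difference between the cold responses was therefore not called over all genes, where 0.306% of probe sets were called.

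The other 4 dopamine receptors, Drd2, Drd3, Drd4 and Drd5, had group means of 1.31 to 2.08 in all 4 groups, at or below the array medians, and 0 of the 4 was called in any comparison. Markers of Schwann cells and nerve, which the tissue also holds, averaged 2.76 to 2.90 per array in arrays labelled knockout at 4 °C, 2.79 to 2.84 in controls at 4 °C, 2.77 to 2.88 in arrays labelled knockout at room temperature and 2.59 to 2.84 in controls at room temperature. Of 7 measured, Pmp22 rose in the cold averaged over genotype (0.61 ± 0.14, adjusted p = 0.00924 in limma, lost at 0.157 with the array of conflicting labels among the 4 °C controls) and 0 fell, and their part in the Drd1 result was not tested.

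**Figure D1:**
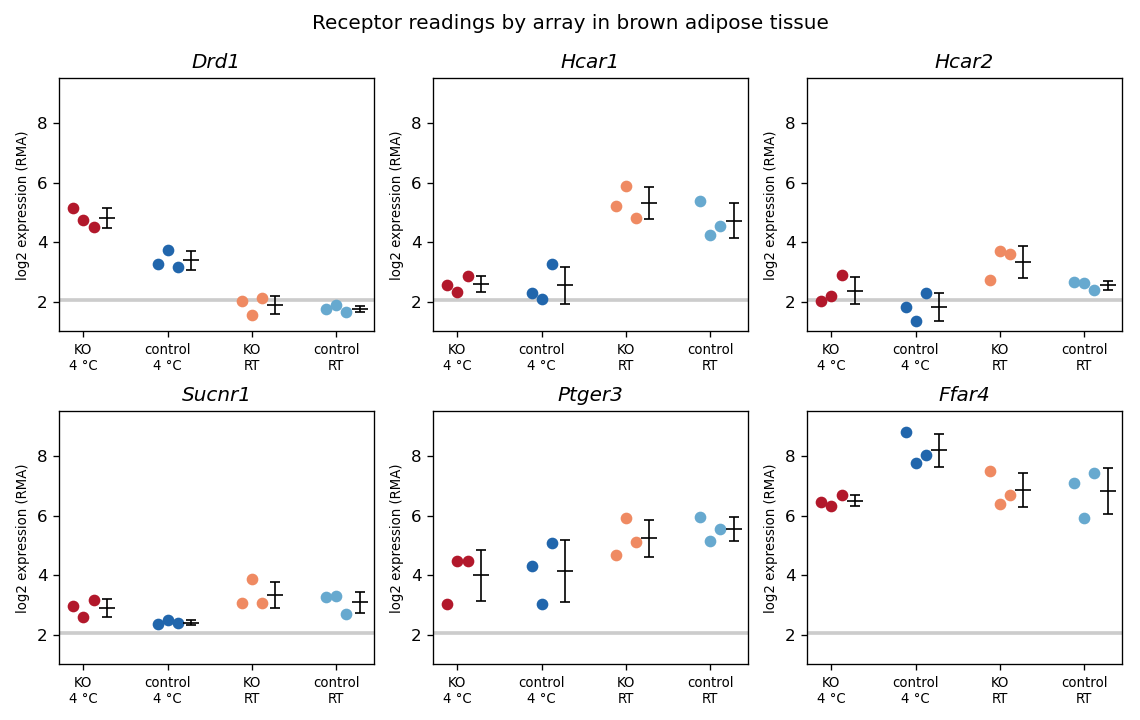
Log2 expression of the 6 receptors (y axis, one panel per gene) on each of the 12 arrays, by group along the x axis; KO marks arrays labelled knockout and RT room temperature. Coloured points are arrays, black marks the mean ± SD of 3 arrays, and the grey band the range of the array medians, 2.03 to 2.09. Drd1 is high at 4 °C and highest in the arrays labelled knockout, Hcar1 is low at 4 °C in both genotypes, and Ffar4 is highest in controls at 4 °C.

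Hcar1, the lactate receptor that couples to Gi and restrains lipolysis, went the other way. The 250 bases before its start on the minus strand, at chr5:123880004-123880253 (GRCm38.p6), are printed 5′ to 3′ for comparison with those of Drd1, again without a match to the motifs searched for.
Hcar1: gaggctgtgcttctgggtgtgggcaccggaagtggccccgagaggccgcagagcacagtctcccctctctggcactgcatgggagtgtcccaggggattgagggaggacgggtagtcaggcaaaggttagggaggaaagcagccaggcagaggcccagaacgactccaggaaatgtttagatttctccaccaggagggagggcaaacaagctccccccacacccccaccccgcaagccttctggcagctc

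Hcar1 read 2.57, 2.33 and 2.87 in the arrays labelled knockout at 4 °C. In controls at 4 °C it read 2.30, 2.10 and 3.26. At room temperature it read 5.20, 5.89 and 4.82 in the arrays labelled knockout and 5.39, 4.24 and 4.54 in controls. Every 4 °C array lay below every room temperature array, and at each temperature the genotypes overlapped. The fall at 4 °C was 6.58-fold in the arrays labelled knockout (log2 -2.72 ± 0.36 SE, n = 3 per group, adjusted p = 0.000628 in limma) and 4.51-fold in controls (-2.17 ± 0.36, n = 3 per group, adjusted p = 0.00213 in limma). The readings at 4 °C came close to the array medians, so both folds are lower estimates if those readings are background. The genotype difference was 0.04 at 4 °C, with a 95% interval of -0.73 to 0.81, and 0.58 at room temperature, with an interval of -0.19 to 1.35, and neither was called (adjusted p = 0.978 and 0.552 in limma). The interaction of -0.54 had an interval of -1.63 to 0.55 (adjusted p = 0.8 in limma).

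Hcar2, the niacin and ketone body receptor that neighbours Hcar1 on chromosome 5, read 2.03, 2.18 and 2.90 in the arrays labelled knockout at 4 °C and 1.83, 1.35 and 2.28 in controls at 4 °C. At room temperature it read 2.72, 3.70 and 3.59 in the arrays labelled knockout and 2.65, 2.61 and 2.38 in controls. Of the 12 readings, 10 lay within 1 of the array median or below it, so most of its range is near background. At room temperature the arrays labelled knockout lay above the controls without overlap, a difference of 0.79 with a 95% interval of 0.15 to 1.43 that was not called (adjusted p = 0.251 in limma). At 4 °C the genotypes overlapped, with a difference of 0.55 and an interval of -0.09 to 1.19 (adjusted p = 0.387 in limma). Averaged over genotype, Hcar2 was 1.80-fold lower at 4 °C than at room temperature (-0.85 ± 0.21, 6 arrays against 6, adjusted p = 0.0122 in limma). Within each genotype the fall was not called, at -0.97 ± 0.29 in the arrays labelled knockout (adjusted p = 0.061 in limma) and -0.73 ± 0.29 in controls (adjusted p = 0.148 in limma). Hcar1 and Hcar2 are similar paralogs, and whether their probe sets read each other's RNA was not tested.

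Sucnr1, the succinate receptor, read 2.97, 2.58 and 3.18 in the arrays labelled knockout at 4 °C and 2.35, 2.49 and 2.38 in controls at 4 °C. At room temperature it read 3.07, 3.85 and 3.07 in the arrays labelled knockout and 3.26, 3.31 and 2.68 in controls. The lowest group was the controls at 4 °C, which lay below all other arrays, and the other 3 groups overlapped with their neighbours in order. Of its 12 readings, 7 lay within 1 of the array median, so much of its range is near background. Averaged over genotype Sucnr1 was 1.47-fold lower at 4 °C (-0.55 ± 0.16, 6 arrays against 6, adjusted p = 0.0317 in limma). This call was lost under 10 of 20 alternatives, the weakest when knockout replicate 2 at 4 °C was left out (adjusted p = 0.0835). It was also lost without control replicate 1 (adjusted p = 0.0775) or 2 (0.0765) or knockout replicate 2 (0.06) at room temperature, and without control replicate 1 (0.0655), 2 (0.0518) or 3 (0.0529) or knockout replicate 1 (0.0554) at 4 °C. The genotype difference at 4 °C was 0.50, with a 95% interval of 0.00 to 1.00 (unadjusted p = 0.0484, adjusted p = 0.292 in limma).

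Ptger3, the Gi-coupled receptor for prostaglandin E2, read 3.02, 4.47 and 4.49 in the arrays labelled knockout at 4 °C and 4.31, 3.04 and 5.10 in controls at 4 °C. At room temperature it read 4.68, 5.92 and 5.12 in the arrays labelled knockout and 5.95, 5.16 and 5.55 in controls. It varied most among replicates, with an SD of up to 1.04 in controls at 4 °C, and each pair of neighbouring groups in the order of means overlapped. Averaged over genotype it was 2.51-fold lower at 4 °C (-1.33 ± 0.36, 6 arrays against 6, adjusted p = 0.0214 in limma). That call was lost under 5 of 20 alternatives, the weakest with the array of conflicting labels among the 4 °C controls (adjusted p = 0.126 in limma). It was also lost when unnamed probe sets were added. The remaining losses were without control replicate 1 at room temperature (adjusted p = 0.0552), knockout replicate 2 at room temperature (0.0555) or knockout replicate 1 at 4 °C (0.0506). Between genotypes it differed by -0.15 at 4 °C, with a 95% interval of -1.26 to 0.95, and by -0.31 at room temperature, with an interval of -1.42 to 0.79, neither of which was called (adjusted p = 0.938 and 0.876 in limma).

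Ffar4, the long-chain fatty acid receptor, was the brightest of the 6 and read far above the array medians on all 12 arrays. Its 250 bases before the start lie on the plus strand at chr19:38096829-38097078 (GRCm38.p6) and are shown, 5′ to 3′ and without a match to the motifs searched for, because Ffar4 was the receptor called lower between genotypes at 4 °C.
Ffar4: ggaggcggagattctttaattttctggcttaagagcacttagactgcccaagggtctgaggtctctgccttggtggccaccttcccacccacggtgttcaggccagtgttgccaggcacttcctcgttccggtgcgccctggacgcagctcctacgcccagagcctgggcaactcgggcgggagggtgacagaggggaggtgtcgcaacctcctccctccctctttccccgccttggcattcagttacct

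Ffar4 read 6.46, 6.33 and 6.69 in the arrays labelled knockout at 4 °C, against 8.81, 7.75 and 8.02 in controls at 4 °C. At room temperature it read 7.50, 6.39 and 6.70 in the arrays labelled knockout and 7.11, 5.94 and 7.43 in controls. The controls at 4 °C stood above every other array, and the other 3 groups overlapped. Between genotypes at 4 °C, Ffar4 was 3.25-fold lower in the arrays labelled knockout (-1.70 ± 0.38 SE, n = 3 per group, adjusted p = 0.0191 in limma), whereas at room temperature the difference was 0.04 with a 95% interval of -0.78 to 0.87 (adjusted p = 0.983 in limma). The call at 4 °C was lost under 4 of 21 alternatives, 1 of them the addition of unnamed probe sets. The others were without control replicate 1 (adjusted p = 0.0896), knockout replicate 1 (0.0621) or knockout replicate 2 (0.076) at 4 °C. In the cold, Ffar4 differed by -0.37 in the arrays labelled knockout, with an interval of -1.19 to 0.45 (adjusted p = 0.685 in limma; -0.05 without knockout replicate 1 at room temperature), and it was 2.59-fold higher in controls (1.37 ± 0.38, n = 3 per group, adjusted p = 0.0352 in limma). This rise lost its call under 7 of 21 alternatives, among them without control replicate 1 (adjusted p = 0.0587) or 2 (0.124) at room temperature or control replicate 1 at 4 °C (0.142). The interaction of -1.74 had an interval of -2.91 to -0.58 and did not pass the test (unadjusted p = 0.00671, adjusted p = 0.26 in limma).

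**Figure D2:**
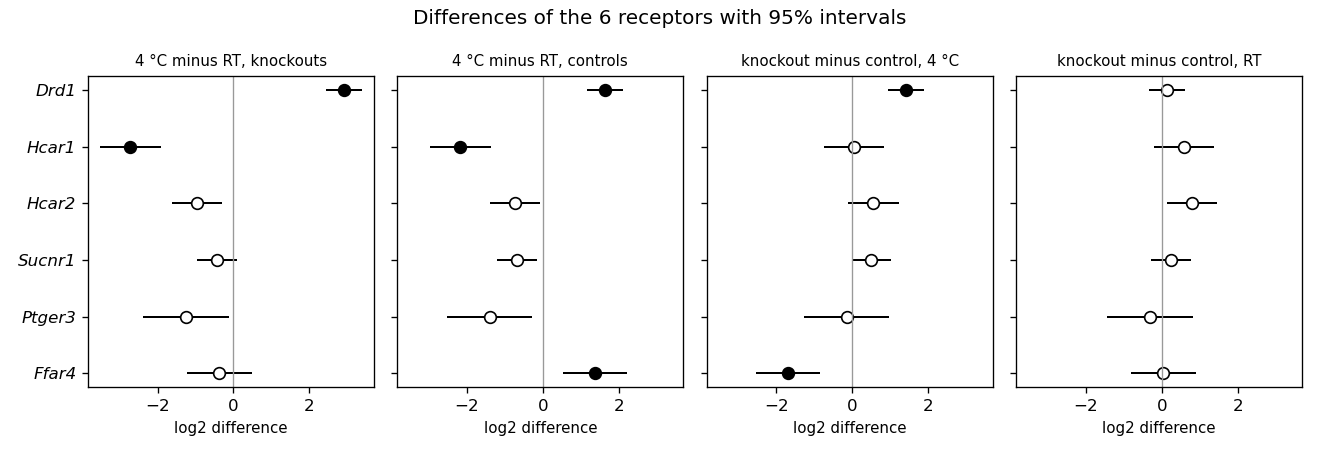
Log2 differences of the 6 receptors (rows) in 4 comparisons (panels; x axis, log2 difference), with 95% intervals as lines; RT is room temperature. Filled points passed an adjusted p of 0.05 in limma and open points did not. Drd1 is filled in 3 panels, Hcar1 in both cold panels, and Ffar4 in the cold panel of controls and the genotype panel at 4 °C.

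Counted over the 6 receptors, 2 were called at 4 °C between genotypes, Drd1 higher and Ffar4 lower in the arrays labelled knockout, where 5.8% of all probe sets were called, 3.61% higher and 2.19% lower, with a median difference of 0.27 over the 6 and of -0.01 over all probe sets. At room temperature 0 of 6 were called between genotypes by limma, 1 had an unadjusted p under 0.05, and 1.72% of all probe sets were called. In the cold, 2 of 6 were called in the arrays labelled knockout and 3 of 6 in controls, where 9.03% and 11.1% of all probe sets were called, with medians of -0.70 and -0.70 against -0.01 and -0.01 over all probe sets. Averaged over genotype, 5 of 6 were called in the cold, Drd1 higher and Hcar1, Hcar2, Sucnr1 and Ptger3 lower, where 17.6% of all probe sets were called, 7.51% higher and 10.1% lower. Averaged over temperature, Drd1 alone was called between genotypes (0.78 ± 0.14, adjusted p = 0.00488 in limma), where 6.96% of all probe sets were called. By limma the interaction was called for 0 of 6, where 0.306% of all probe sets were called. An unadjusted p under 0.05 was reached by 2 of 6, beside 2298 of all 23521 probe sets. With the array of conflicting labels counted among the 4 °C controls, 5 of the 13 calls were lost. These were Drd1 (adjusted p = 0.243), Hcar1 (0.188) and Ffar4 (0.143) in the cold response of controls, Ptger3 in the cold averaged over genotype (0.126) and Drd1 between genotypes averaged over temperature (0.0969). In that setting 0 of all probe sets were called in the cold response of controls, against 2606 otherwise. The losses in that response are therefore not particular to the receptors, and all losses of this setting apply only if the source name is right.

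Promoter letters were compared in RefSeq windows of GRCm38.p6, which held 5 of the 6 receptors, with 6 start sites in all; Hcar2 had no window. Motifs were searched on both strands of the 250 bases before each start: the cAMP response element TGACGTCA, its core TGACG, which it contains, the E-box CACGTG, the TATA box TATAAA, the CCAAT box CCAAT and the PPAR direct repeat. None of these was found in any of the 6 windows. Over 32851 promoter windows of the same length, the shares that held them were 1.55%, 17.8%, 6.02%, 12.4%, 33.8% and 0.0335% in the order given. The absence of these letters from the windows says nothing of the factors that bind them. The windows of Drd1 and Hcar1 printed above had G and C at 64% and 62.4% of bases, that of Ffar4 at 61.2%, that of Ptger3 at 62% and that of Sucnr1 at 38%, against a median of 52.4% over all windows.

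Other genes followed the receptors' readings across the 12 arrays, compared among 8265 probe sets with a mean of at least 4. These correlations are descriptions, since all points share the same arrays and the same 4 groups. Closest to Drd1 were Wdr74 (Pearson r = 0.97), the ubiquitin ligase Rchy1 (0.97) and the phospholipase Pla2g12a (0.97). Closest to Hcar1 were the lysosomal phospholipase Pla2g15 (0.99), the lipogenic transcription factor Srebf1 (0.97) and the RNA sensor Tlr3 (0.97). Hcar2 was nearest to Sema4a (0.97), to Naprt, which uses niacin to make NAD (0.95), and to the lipase maturation factor Lmf1 (0.95). Ptger3 was nearest to Unc93b1 (0.96), Dhdh (0.96) and the lipogenic Thrsp (0.95), and Sucnr1 to Med22 (0.92), Lsm7 (0.90) and Fbxl14 (0.90). Ffar4 was nearest to the histone demethylase Kdm6b (0.96), to Gpam, which starts glycerolipid synthesis (0.94), and to the transcription factor Mef2d (0.94). Among the receptors themselves, Hcar1 and Drd1 had r = -0.86, Hcar1 and Ptger3 0.80, and Hcar1 and Hcar2 0.78.

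Another 74 receptors of the lists were measured, and 4 of them rose and 6 fell in the cold averaged over genotype, with a median of 0.01, beside 7.51% higher and 10.1% lower over all probe sets. Of 9 adrenergic receptors listed, only 2 were measured, Adra1b and Adra2c, so the beta adrenergic receptors are not covered. Their group means of 1.31 to 1.66 lay below the array medians, and 0 of the 2 was called in the cold averaged over genotype. Aplnr, the Gi-coupled apelin receptor, was 3.47-fold lower at 4 °C (-1.79 ± 0.15, adjusted p = 1.07e-05 in limma), and Calcrl, of the adrenomedullin receptor, was 1.64-fold lower. At 4 °C Aplnr averaged 2.08 in the arrays labelled knockout and 2.04 in controls, near the array medians, so its fold is a lower estimate if those readings are background. Ptger4, the Gs-coupled receptor for the same ligand as Ptger3, was 1.81-fold higher (0.85 ± 0.17, adjusted p = 0.00419 in limma), and S1pr1, a receptor of sphingosine phosphate, 1.53-fold higher (0.62 ± 0.12, adjusted p = 0.00273). The call of Ptger4 was lost with the array of conflicting labels among the 4 °C controls (adjusted p = 0.0697), and those of the other 3 held in all 20 alternatives. Between genotypes averaged over temperature 2 of the 74 were higher in the arrays labelled knockout and 0 lower, beside 6.96% of all probe sets called. They were Tshr, the thyrotropin receptor (1.08 ± 0.21, adjusted p = 0.00793 in limma), and Sctr, the secretin receptor (0.93 ± 0.17, adjusted p = 0.00479), both of which couple to Gs. With the skeletal muscle mean as a covariate the call of Tshr was lost (adjusted p = 0.0518), and that of Sctr held in all 20 alternatives.

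In the cold averaged over genotype, 17.6% of all probe sets were called, 7.51% higher and 10.1% lower, and several counts of signalling and ligand genes are near those shares. Downstream of the receptors, 3 of 9 adenylyl cyclases changed in the cold averaged over genotype, 1 higher and 2 lower. Adcy9 was lower (-1.09 ± 0.14, adjusted p = 0.000176 in limma), a call lost with the array of conflicting labels among the 4 °C controls (adjusted p = 0.0871). Between genotypes at 4 °C, Adcy6 was lower in the arrays labelled knockout (-0.95 ± 0.18, adjusted p = 0.00577 in limma). Of 6 subunits of protein kinase A, 2 rose and 2 fell in the cold, with the catalytic subunit Prkaca at -0.82 ± 0.15 and the regulatory subunit Prkar1a at 0.61 ± 0.13. The call of Prkaca was lost with the array of conflicting labels among the 4 °C controls (adjusted p = 0.0504). Of 6 receptor kinases and arrestins, which switch receptors off, 3 fell and 0 rose, including Arrb1 (-0.68 ± 0.14, adjusted p = 0.00409 in limma) and Grk3 (-0.61 ± 0.11, adjusted p = 0.00232). The call of Grk3 was lost in the same setting (adjusted p = 0.192). Of 13 G alpha subunits 0 rose and 3 fell, with Gna11 at -0.57 ± 0.11. Of 18 RGS proteins, which end G protein signals, 0 rose and 3 fell. Of 16 genes known to respond to cAMP, 15 rose in the cold and 0 fell, with a median of 1.34, among them Fosb, a transcription factor (3.52 ± 0.23, adjusted p = 2.28e-06 in limma), and between genotypes averaged over temperature 0 rose and 1 fell. Between genotypes at 4 °C, 3 of the 16 fell and 0 rose, including Ppargc1a, a coactivator of mitochondrial genes (-1.42 ± 0.25, adjusted p = 0.00473 in limma), beside 5.8% of all probe sets called. The call of Ppargc1a was lost with the array of conflicting labels among the 4 °C controls (adjusted p = 0.709).

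Genes that make, move or clear the ligands changed in part. Slc16a1, a carrier of lactate and ketone bodies, was higher in the arrays labelled knockout than in controls averaged over temperature (0.73 ± 0.10, adjusted p = 0.000638 in limma) and higher at 4 °C averaged over genotype (0.50 ± 0.10, adjusted p = 0.00433). Of the 6 genes for lactate and ketone bodies it was the 1 that was higher in the arrays labelled knockout averaged over temperature, and 2 were lower, including Acat1, a thiolase of ketone body metabolism (-0.48 ± 0.07, adjusted p = 0.00135 in limma). It was also 1 of 3 of these 6 genes that rose in the cold, with 0 falling. Of 7 prostaglandin E2 genes 2 fell in the cold and 0 rose, including Hpgd, which degrades the prostaglandin (-1.17 ± 0.24, adjusted p = 0.00426 in limma). Of 7 succinate genes 2 fell and 0 rose, and of 6 adenosine genes Entpd1, which breaks down extracellular ATP, rose (0.85 ± 0.11, adjusted p = 0.000229 in limma) and 0 fell. The call of Entpd1 was lost with the array of conflicting labels among the 4 °C controls (adjusted p = 0.0566). Of 6 genes of lipolysis, which include an inhibitor and a lipid droplet coat protein beside the lipases, 4 fell and 0 rose. They were G0s2, which inhibits a lipase (-1.27 ± 0.08), the hormone-sensitive lipase Lipe (-0.60 ± 0.08), the monoglyceride lipase Mgll (-0.51 ± 0.11) and the coat protein Plin1 (-0.36 ± 0.08). The call of Mgll was lost with the array of conflicting labels among the 4 °C controls (adjusted p = 0.0877).

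**Figure D3:**
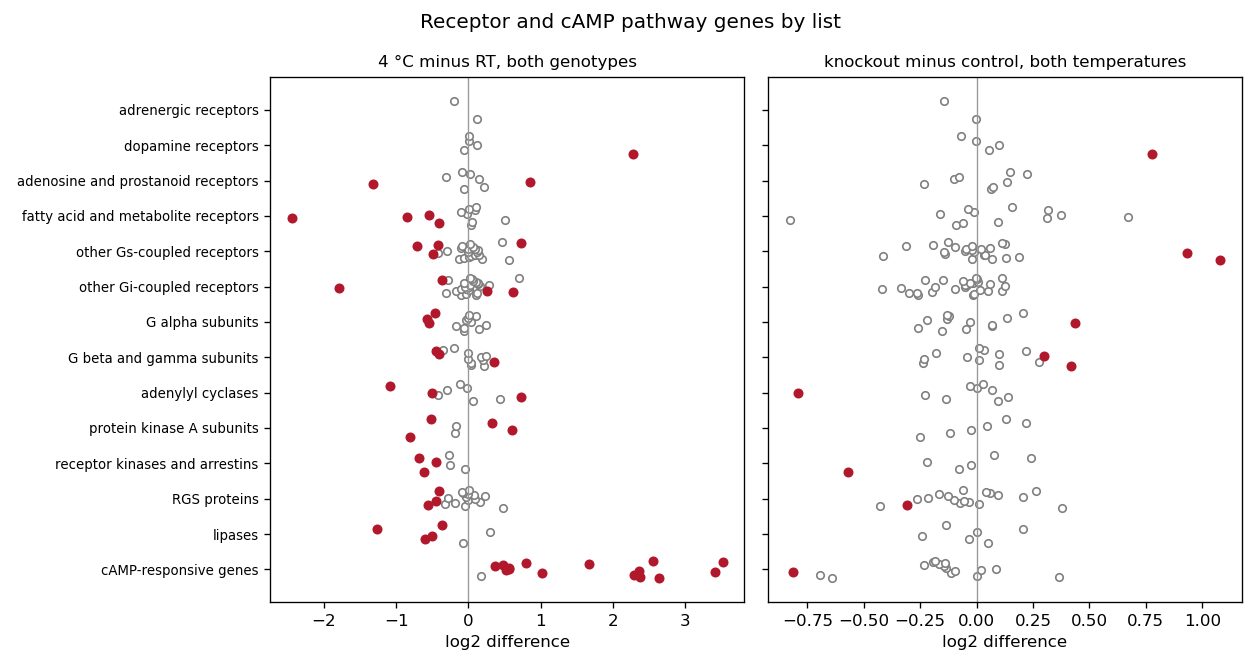
Log2 differences (x axis) of every measured gene of 14 lists of receptors and of the cAMP pathway (rows), for 4 °C minus room temperature (left) and knockout minus control (right), each averaged over the other factor. Red points passed an adjusted p of 0.05 in limma and open grey points did not; the x axes differ in scale. In the cold panel Hcar1 is the lowest point of the receptor rows and Drd1 the highest.

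Markers of the cell types in the tissue moved as follows. Of 11 adipocyte genes, 5 fell and 1 rose in the cold averaged over genotype, including Cebpa, a transcription factor of adipocytes (-2.11 ± 0.12, adjusted p = 1.03e-06 in limma). Their mean per array was 8.46 to 8.55 in arrays labelled knockout at 4 °C, 8.66 to 8.86 in controls at 4 °C, 8.88 to 9.20 in arrays labelled knockout at room temperature and 9.11 to 9.38 in controls at room temperature. This mean was lower on every 4 °C array than on every room temperature array, as was Hcar1, and its part in the falls of Hcar1, Hcar2, Sucnr1 and Ptger3 was not tested. The genes did not move alike, with a median difference of -0.34. Lep averaged 2.38 and 2.22 at 4 °C against 3.92 and 4.10 at room temperature, arrays labelled knockout first. Fabp4 averaged 12.29 and 12.22 against 12.26 and 12.32. Pparg and Retn were not called in the cold averaged over genotype (adjusted p = 0.791 and 0.86 in limma). Of 12 macrophage markers, which mark cells that can also carry Hcar2, Sucnr1 and Ffar4, 3 rose in the cold and 0 fell, and 0 were called between genotypes at 4 °C. Their mean per array was 5.31 to 5.54 in arrays labelled knockout at 4 °C, 4.94 to 5.75 in controls at 4 °C, 5.11 to 5.30 in arrays labelled knockout at room temperature and 4.90 to 5.46 in controls at room temperature. At 4 °C, where Ffar4 was lower in the arrays labelled knockout, 2 of the 11 adipocyte genes were lower too and 0 higher, beside 2.19% of all probe sets lower. They were Retn (-1.42 ± 0.28, adjusted p = 0.0103 in limma) and Pparg, the master regulator of adipocytes (-0.78 ± 0.16, adjusted p = 0.0144). The mean of the 11 was, like Ffar4, lower on every 4 °C array labelled knockout than on every 4 °C control, with a median difference of -0.13. The part of these genes and of their mean in the Ffar4 result was not tested. The call of Retn was lost without knockout replicate 2 at 4 °C (adjusted p = 0.0532), and that of Pparg without control replicate 1 (0.0662), control replicate 2 (0.0608) or knockout replicate 3 (0.0689) at 4 °C. The mean of 10 brown adipocyte genes was 9.21 to 9.29 per array in arrays labelled knockout at 4 °C, 9.44 to 9.46 in controls at 4 °C, 8.93 to 9.21 in arrays labelled knockout at room temperature and 8.62 to 9.10 in controls at room temperature. At 4 °C this mean, like Ffar4, was lower on every array labelled knockout than on every control, with 1 of the 10, Ppargc1a, called lower and 0 higher, and its part in the Ffar4 result was not tested. The median difference of the 10 at 4 °C was -0.05. Ppargc1a averaged 9.83 in the arrays labelled knockout and 11.25 in controls there, so the lower mean rests largely on that gene.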

How the data were processed

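The deposited table gives log2 expression per probe set. The submitters' processing notes name RMA alone, which corrects background, quantile-normalizes and summarises probes on the log2 scale; no version is stated. Values ran between 0.27 and 13.02 over 41345 probe sets and kept differences in brightness between genes. Scanner files were not used here. The platform annotation gave 1 gene symbol to 23521 probe sets and several to 1814, and left 16010 unnamed; RefSeq held 23328 of the Entrez identifiers and changed 0 symbols.

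Groups were taken from titles. With limma 3.58.1 (R 4.3.3), 4 group means were estimated over the 12 arrays by lmFit, contrasts.fit and eBayes (8 residual degrees of freedom, prior 4.45), and p-values were adjusted by Benjamini-Hochberg over the 23521 probe sets, unfiltered; an adjusted p under 0.05 is a call. Differences are knockout over control, or cold over room temperature, with the model's SE. Tested on simulated arrays of 23521 probe sets for knockout against control at room temperature, it recovered 83% of log2 changes of 1 and 98% of changes of 2. These changes were placed in probe sets drawn at random, and the median SE over all probe sets was 0.14. The receptors' SE in that comparison ran from 0.20 (Drd1) to 0.51 (Ptger3), so the rates do not apply to them. Receptors and lists were chosen with earlier results of these data known. Genes named from a list as changed are some of its 4 largest calls in that comparison, and for each receptor the 3 genes of highest Pearson correlation were named. The labels tie no array to a litter or day, so p-values reflect only variation among these arrays, whose number limits precision. Alternatives changed the probe sets, the scaling, the fit, the covariates and the arrays included.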

Additional observations from a re-analysis of the deposited data

Results flagged for a closer look

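The cold response of Ffar4 was negative in the arrays labelled knockout and positive in controls. Each array labelled knockout at 4 °C lay below the mean of its room temperature group, and each control at 4 °C lay above the mean of its own. Ffar4 was flagged because of this pattern, so the pattern is no further evidence of opposite responses. The knockout response of -0.37 had a 95% interval of -1.19 to 0.45 (adjusted p = 0.685 in limma), so its sign is not established, and without knockout replicate 1 at room temperature it was -0.05. The difference between the responses, knockout minus control, was -1.74 ± 0.54 SE on the log2 scale, which did not pass the test over all probe sets (adjusted p = 0.26 in limma, 0.119 to 0.449 over 20 alternatives).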

How the results depend on the processing

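Of the 13 calls of the 6 receptors in limma, 6 held in every alternative run: Drd1 at 4 °C between genotypes, in the cold in knockouts and in the cold averaged over genotype, Hcar1 in the cold in knockouts and averaged over genotype, and Hcar2 in the cold averaged over genotype. No called receptor changed direction. Between genotypes at 4 °C the number of receptors called was 2, and 1 when unnamed probe sets were added. In the cold averaged over genotype it was 5, and 3 when unnamed probe sets were added. Between genotypes averaged over temperature it was 1, and 2 with only the brighter probe sets, 2 with the replicate block and 0 with the array of conflicting labels among the 4 °C controls (2 at an unadjusted p under 0.05). In the cold in controls it was 3, and 0 by limma with that array so placed (4 at an unadjusted p under 0.05). Leaving out each array in turn gave 1 to 2 between genotypes at 4 °C, 3 to 5 in the cold averaged over genotype and 1 to 3 between genotypes averaged over temperature. The replicate numbers pair the arrays only by name: deviations of same-numbered arrays correlated at -0.18 to 0.16, over 0.1 in 2 of 18 pairs, and 5 of 18 correlated best with their own number; the replicate block lost 0 of the 13 calls and added 1. The mean of several probe sets per gene was not run, since each receptor had 1. Counts over all probe sets, between the lowest and highest alternatives, were 177 to 504 for genotype at room temperature, 842 to 1558 at 4 °C, 0 to 2875 for cold in controls (0 with that array so placed, and 3602 at an unadjusted p under 0.05), 1044 to 2366 for cold in knockouts and 17 to 123 for the interaction, against 404, 1365, 2606, 2123 and 72. Signal near background limits Hcar2, Sucnr1, Hcar1 at 4 °C and Drd1 at room temperature.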
